A study of Homo sapiens with 6 samples.

Results

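The transcriptome described here is that of U251 cells that received a negative control plasmid, and it is described by absolute level and rank across genes. U251 is an established human glioblastoma cell line, so all values belong to 1 line. The series holds 6 samples, and the 3 used here are all samples labelled as transfected with negative control plasmids. The other 3 received a STING overexpression plasmid and were not used. Cells with the genotype label WT were grown in DMEM with 10% fetal bovine serum, and 1 ug of control plasmid per well was given for 3 days. Every value therefore comes from cells that had taken up, or been exposed to, plasmid DNA for 3 days. Cells without transfection were not analysed here, so an effect of the plasmid or of transfection cannot be told apart from the resting state of the line. The labels number the 3 samples but do not say that they came from separate cultures, so the spread between them may be technical. They are called libraries 1, 2 and 3.

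Glioblastoma is the most common malignant tumour that starts in the adult brain. Its cells carry glial and stem cell features, and tumours and lines are often described by proneural, classical and mesenchymal expression programs. The mesenchymal program holds genes of matrix, adhesion and wound response and is known to be prominent in serum-grown glioblastoma lines. In the cytosol, double-stranded DNA is sensed by cGAS, whose product activates STING on the endoplasmic reticulum, and STING acts through the kinase TBK1 and the transcription factor IRF3 on the interferon beta gene. Secreted interferon then acts through its receptor and transcription factors that include STAT2 and IRF9 on a large set of interferon-stimulated genes.

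The libraries held 74638335, 71498790 and 76158548 counts over 42307 annotated genes. Levels are given as FPKM, the authors' deposited fragment values scaled by gene length and library size, because only a value per length allows genes to be compared with each other. A mean is followed by its SD over the 3 libraries (n = 3). A gene was taken as detected with at least 3 counts in every library and as expressed with a mean of at least 1 FPKM, and ranks run over all 42307 genes by mean FPKM. Of these genes 22763 were detected, with a median of 1.48 FPKM, and 12533 were expressed. The number expressed was 12570, 12559 and 12552 in the single libraries, and 10869 of the 18372 protein-coding genes were among the 12533. This last share is the background for the counts of expressed members in the gene lists below. Across genes, the libraries were alike, with Pearson correlations of log2 values of 0.981 to 0.987 and Spearman correlations of 0.989 to 0.991 over the expressed genes. These are descriptions across genes of 1 line, and genes are not independent replicates.

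Libraries 2 and 3 contained transcripts of blood cells that library 1 nearly lacked. Haemoglobin beta (HBB) had 16, 30429 and 30209 counts in libraries 1, 2 and 3, which is 0.13, 300.1 and 279.6 FPKM. The alpha chains, whose near-identical copies cannot be separated with certainty, had 10, 10877 and 11082 counts for HBA2 and 9, 8814 and 8805 for HBA1. Together the 3 globin genes made up 4.69e-05%, 0.0701% and 0.0658% of all counts. Other red blood cell genes were present in the same libraries at much lower counts: HBD, the minor adult beta-like chain, had 0, 94 and 65 counts, ALAS2, the first enzyme of erythroid haem synthesis, had 0, 88 and 81, and SLC4A1, the band 3 anion exchanger, had 0, 18 and 25. The embryonic globin HBZ had 0, 0 and 0 counts.

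Genes of neutrophils and platelets showed the same split. FCGR3B, the neutrophil Fc receptor, had 0, 265 and 419 counts, CSF3R, the granulocyte growth factor receptor, had 0, 185 and 187, and CXCR2, a receptor for CXCL8, had 8, 177 and 121. PPBP and PF4, chemokines stored in platelets, had 0, 34 and 39 and 0, 7 and 6 counts. Over lists chosen after these values were seen, 5, 9 and 12 of 16 red blood cell genes, 6, 12 and 11 of 13 neutrophil and monocyte genes and 3, 5 and 5 of 6 platelet genes reached 3 counts in libraries 1, 2 and 3. The summed FPKM of these lists was 0.49, 606.8 and 570 for red blood cell genes, 1.17, 10.2 and 10.9 for neutrophil and monocyte genes and 1.43, 1.99 and 1.97 for platelet genes. Lymphocyte genes did not share the split, with sums of 2.87, 4.42 and 2.85 FPKM over 10 genes. By a rule set after seeing the data (at least 25 counts in the higher libraries and over 8 times the lower one plus 2 counts), 44 genes were high in libraries 2 and 3 together, against 18 in libraries 1 and 2 and 20 in libraries 1 and 3. Of the 44 genes 15 were on the red blood cell, neutrophil and monocyte or platelet lists, and none of the 18 or the 20 was. Both the rule and the lists were set with these values in view, so this overlap gives no separate support. In bulk RNA, fewer cells of a type and less RNA per cell cannot be told apart, and where these transcripts came from was not tested. Library 1 alone held 12570 expressed genes, and the main shares and counts below are also given for library 1.

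**Figure D1:**
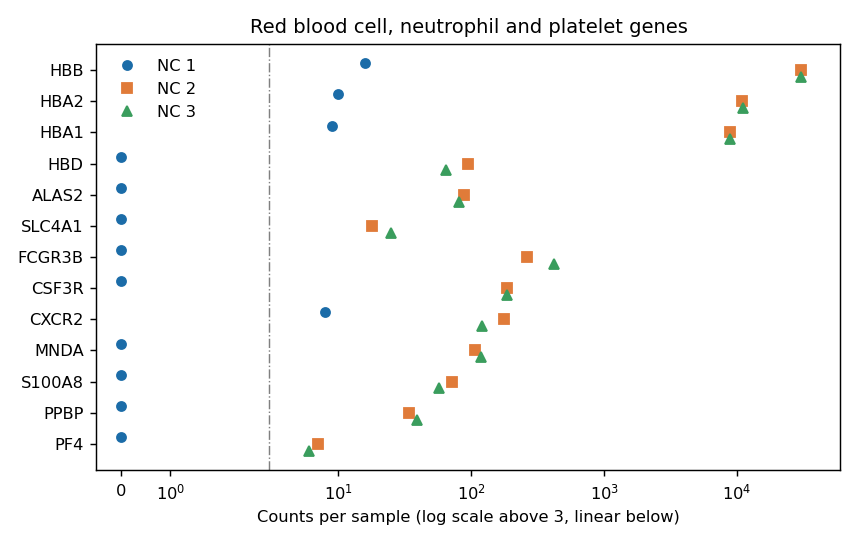
Counts of red blood cell, neutrophil and platelet genes (rows) in each library; the horizontal axis is logarithmic above 3 counts and linear below, and the dashed line marks 3 counts. Libraries 2 and 3 lie together and to the right of library 1 in every row, from HBB with 16, 30429 and 30209 counts to PF4 with 0, 7 and 6.

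The upper end of the transcriptome was held by the mitochondrial genome. Its 13 mRNAs, which encode subunits of the respiratory chain and of ATP synthase, made up 16.4% ± 0.307 of all FPKM (16.6% in library 1). The 4 highest were MT-CO1 with 7788, 7427 and 7138 FPKM, MT-ATP8 with 6263, 6227 and 6086, MT-ATP6 with 4493, 4494 and 4352 and MT-ND4L with 4531, 4303 and 4120.2. MT-CO1 encodes the catalytic subunit of cytochrome c oxidase, and its values did not overlap with those of any other gene. MT-ATP8 overlaps MT-ATP6, and MT-ND4L overlaps MT-ND4 (4154 ± 185 FPKM), so fragments from such joint mRNAs may be counted for either. The other subunits of cytochrome c oxidase, MT-CO2 and MT-CO3, followed with 4129 ± 100.2 and 3612 ± 80.6 FPKM.

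The other complex I subunits of the same genome were lower. MT-ND2 had 2031 ± 60.5 FPKM, MT-ND1 1578 ± 23.2, MT-ND5 859.8 ± 44.2 and MT-ND3 662 ± 62.7, and cytochrome b (MT-CYB) had 1424 ± 32.9. MT-ND6, the only one of the 13 encoded on the light strand, had 679 ± 13.6 FPKM and overlapped with MT-ND3 in its values. The mitochondrial 16S and 12S rRNAs, MT-RNR2 and MT-RNR1, had 2404 ± 63.5 and 919 ± 73.2 FPKM. Of the 30 genes of highest level, 4 were mitochondrial tRNAs (MT-TY, MT-TC, MT-TN and MT-TS1), with means between 727 and 848 FPKM. A tRNA gene is very short, so few counts give a high value per length: MT-TY reached its level from 4484, 4417 and 4503 counts. The 13 mitochondrial mRNAs held 3.87% ± 0.0818 of the counts, which are not divided by length.

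Among nuclear genes the ferritin light chain was highest. FTL had 3885, 3946 and 3772 FPKM (rank 7) and the heavy chain FTH1 had 2257, 2171 and 2168 (rank 10), and both encode subunits of the iron storage shell. FTL was 1.76 ± 0.0512 times FTH1, and with the length of 1 principal transcript in place of all annotated exons this ratio was 1.07, so the size of the gap rests on the length used. GAPDH, a glycolytic enzyme, followed with 1449 ± 27.2 FPKM, then thymosin beta 10 (TMSB10), an actin monomer binder, with 1385 ± 109.6, and EEF1A1, the elongation factor that brings aminoacyl tRNA to the ribosome, with 1350 ± 51.9. The values of TMSB10 (1262, 1474 and 1418 FPKM) overlapped with those of GAPDH and EEF1A1, and GAPDH lay above EEF1A1 without overlap. IFI6, an interferon-stimulated gene, came next at rank 17 with 1188, 1125 and 1054 FPKM, and only 5 nuclear protein-coding genes had a higher mean. The tubulin gene TUBB (873 ± 21.1 FPKM), the actins ACTB (837 ± 14.8) and ACTG1 (694 ± 9.98), the ribosomal protein gene RPS12 (707 ± 37.8) and the lysosomal saposin precursor PSAP (707 ± 22.5) completed the 30 highest.

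The levels were concentrated in few genes. Summed FPKM reached 50% of the total with 480 genes (482 in library 1), and the 10 highest genes held 16.8% ± 0.309 (17.1% in library 1). In all, 17 genes had at least 1000 FPKM, 263 at least 100 and 4459 at least 10. Leaving out the mitochondrial genome raised the 480 genes to 951, and CPM values, which leave out length, raised them to 1217.

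**Figure D2:**
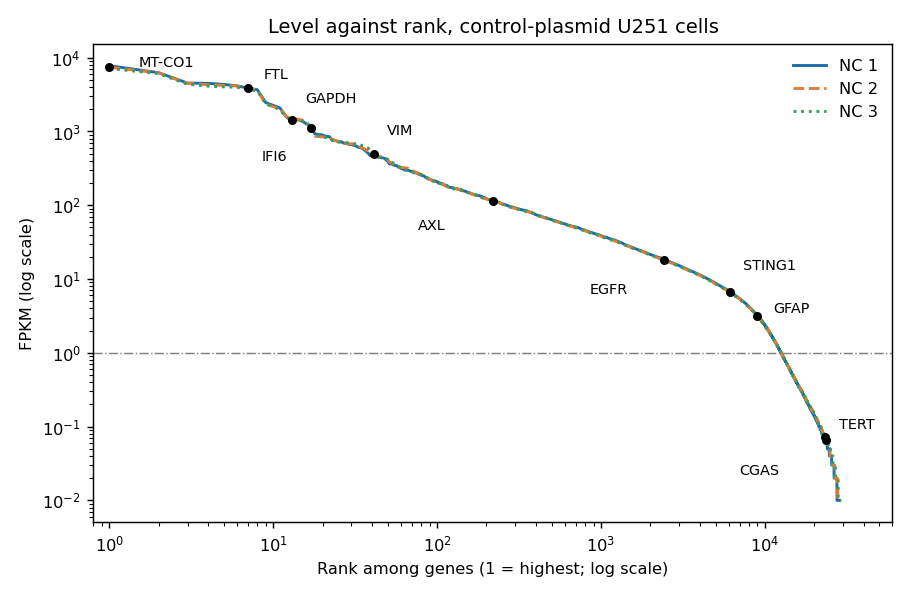
FPKM against rank for each library (lines) with named genes at their mean (points), both axes logarithmic; the dashed line marks 1 FPKM. The 3 curves lie on each other from MT-CO1 at rank 1 down to CGAS at rank 23171, and IFI6 (rank 17) lies above VIM (rank 41).

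Ribosomes and translation factors formed the broadest abundant group. All 79 genes of the cytoplasmic ribosomal protein list were expressed, 35 of them at or above 100 FPKM, with a median of 93.5 FPKM against 1.48 over all detected genes. They held 3.73% ± 0.139 of FPKM, and 3.58% in library 1, the lowest of the 3. With the length of 1 principal transcript per gene the share came to 6.38%. RPS12 was highest with 689, 681 and 751 FPKM, and RPL41 (364, 413 and 420.1) and RPS2 (328, 327 and 330.0) were also among the highest. RPS29 was lowest with 2.05, 2.87 and 3.11 FPKM. The length behind its deposited value was 9850 bases, and with 1 principal transcript RPS29 came to 38.9 FPKM. All 19 translation factors were expressed, led by EEF1A1, EEF2, the translocation factor (455 ± 10.4 FPKM), EEF1G (216 ± 8.2) and EIF5A (188 ± 2.67). Ribosomal protein genes and EEF1A1 have many processed pseudogenes with near-identical sequence, and how fragments that match several places were counted is not given in the sources used here.

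The cytoskeleton list had 45 of 48 members expressed and a median of 53.6 FPKM. TMSB10, TUBB, ACTB and ACTG1 were its 4 highest, and TMSB10 was 3.57 ± 0.396 times its relative TMSB4X (389 ± 13 FPKM). The smooth muscle members were low: the light chain MYL9 had 0.07, 0.07 and 0.09 FPKM and TAGLN, a calponin family protein, had 1.68, 1.45 and 1.47. The 10 most abundant noncoding RNAs were the 2 mitochondrial rRNAs, the tRNAs MT-TY, MT-TC, MT-TN, MT-TS1 and MT-TL1 (616 ± 18.3 FPKM), and 3 chromosome 21 models named FP236383 (2 of them) and FP671120. The highest FP236383 model had 439, 593 and 721 FPKM and the second 430.2, 586 and 710.2, and FP671120 had 407, 551 and 673. All 24 models of these names on chromosome 21 held 0.594%, 0.820% and 1.00% of FPKM. Each of the 3 highest overlaps an 18S rRNA gene in RefSeq on the same assembly. Ribosomal DNA repeats are near-identical copies, so single models are uncertain, and their share was lowest in library 1.

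Interferon-stimulated genes stood high, while cGAS and the interferon genes IFNB1, IFNG, IFNL1 and IFNA1 averaged under 1 FPKM. The promoters of 3 of them are shown because these genes span the range from rank 17 to rank 231 and share a motif, the interferon-stimulated response element GAAANNGAAA, to which a complex that holds STAT2 and IRF9 is known to bind. The sequences run 5′ to 3′ on the strand of the gene, from 250 bases before to 50 after the start, and are taken from RefSeq on GRCh38.p14. Capitals mark every match of GAAANNGAAA on either strand, and overlapping matches are merged.
IFI6, chr1:27672143-27672442, minus strand: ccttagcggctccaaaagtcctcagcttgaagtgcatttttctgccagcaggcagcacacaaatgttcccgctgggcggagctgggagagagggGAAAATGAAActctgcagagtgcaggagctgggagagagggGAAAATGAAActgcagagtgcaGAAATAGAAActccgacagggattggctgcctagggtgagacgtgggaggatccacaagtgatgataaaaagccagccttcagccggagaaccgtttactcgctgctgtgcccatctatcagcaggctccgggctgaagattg
ISG15, chr1:1013247-1013546, plus strand: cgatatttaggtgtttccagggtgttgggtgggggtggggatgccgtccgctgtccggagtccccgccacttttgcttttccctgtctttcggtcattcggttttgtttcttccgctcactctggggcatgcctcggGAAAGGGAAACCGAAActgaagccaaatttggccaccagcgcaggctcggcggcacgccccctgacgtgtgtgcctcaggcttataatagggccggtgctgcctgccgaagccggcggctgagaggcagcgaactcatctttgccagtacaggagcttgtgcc
IFIT1, chr10:89392373-89392672, plus strand: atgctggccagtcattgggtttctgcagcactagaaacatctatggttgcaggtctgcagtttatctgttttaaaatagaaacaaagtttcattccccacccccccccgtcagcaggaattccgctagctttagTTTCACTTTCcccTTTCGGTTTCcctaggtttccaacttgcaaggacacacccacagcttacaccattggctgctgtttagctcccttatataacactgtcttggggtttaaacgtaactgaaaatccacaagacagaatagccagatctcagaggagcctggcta
The IFI6 window held 3 matches, and the ISG15 and IFIT1 windows held 2 each, on the opposite strand in IFIT1. Of the 40 genes of the list of interferon-stimulated and MHC genes, 28 had a promoter in the RefSeq table. Of these, 21 (75%) held at least 1 match, against 4.38% of all 27305 genes in the table. The list was made of genes already known for their response to interferon, so a higher share was built in. It uses no value of these libraries and gives no support for the levels. Members without a match included HLA-B (293.4 FPKM), HLA-C (206.4) and OAS1 (58.45). A match is a description of letters and does not show binding.

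Of the 40 listed genes 36 were expressed, 33 at or above 10 FPKM and 14 at or above 100, with a median of 45.9 FPKM. Together they held 1.98% ± 0.0985 of FPKM (2.05% in library 1). After IFI6 came ISG15, a ubiquitin-like modifier, with 471, 459.5 and 453 FPKM (rank 43), and B2M, the light chain of MHC class I, with 470.2, 463 and 424. The class I heavy chain HLA-B had 298, 319 and 263 FPKM, and fragments of the class I genes cannot always be told apart. BST2, which tethers enveloped virus to the cell, had 302, 288 and 262 FPKM. IFIT3 had 178, 159 and 147 FPKM, and IFIT1, which binds foreign RNA, had 123, 108 and 101. IFI44 and IFI27 had 130.3 ± 7.66 and 122 ± 5.29 FPKM.

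Antiviral enzymes of the list were also expressed. The oligoadenylate synthetases OAS3, OAS2 and OAS1 had 79.7 ± 5.49, 65.8 ± 6.34 and 58.5 ± 5.09 FPKM, and the GTPase MX1 and the radical enzyme RSAD2 had 39.4 ± 3.49 and 35 ± 4.34. The peptide transporter subunits TAP1 and TAP2 had 70.4 ± 4.74 and 46.9 ± 2.64 FPKM. The 4 members under 1 FPKM belong to MHC class II: HLA-DRA had 0.58, 1.23 and 0.65 FPKM, the invariant chain CD74 0.19, 0.42 and 0.36, the class II transactivator CIITA 0.13, 0.2 and 0.27 and HLA-DRB1 0.09, 0.24 and 0.12.

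The sensing list had 26 of 37 members expressed, beside 10869 of 18372 for all protein-coding genes, and a median of 7.89 FPKM. Among its highest were the RNA sensor RIG-I (DDX58) with 56.7, 51 and 50.5 FPKM, the nuclear DNA sensor IFI16 with 51.1, 48 and 49 and STAT2 with 37.4, 34.5 and 32.4. The RNA sensor MDA5 (IFIH1) had 29.9 ± 1.79 FPKM, its adaptor MAVS 13.3 ± 0.215, and IRF9 13.5 ± 2.53. STING1 itself had 6.99, 7.01 and 5.91 FPKM (rank 6143), the kinase TBK1 9.5, 9.25 and 9.19 and IRF3 17.9, 18 and 18.2. These levels were the baseline of the pathway in cells without the STING plasmid.

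The sensor upstream of STING was low. CGAS had 22, 31 and 26 counts, which is 0.06, 0.09 and 0.07 FPKM, and its values did not overlap with those of STING1. AIM2, an inflammasome DNA sensor, had 0.19, 0.07 and 0.09 FPKM, and IRF7, the factor that amplifies interferon alpha transcription, had 0.34, 0.32 and 0.24. The interferon beta gene IFNB1 had 51, 33 and 80 counts (0.76, 0.49 and 1.14 FPKM), interferon gamma (IFNG) had 0.74, 0.54 and 0.84 FPKM, interferon lambda 1 (IFNL1) had 12, 0 and 3 counts and IFNA1 had 4, 3 and 0. The values of IFNB1 and IFNG overlapped. The receptor chains IFNAR1 and IFNAR2 had 12.5 ± 0.263 and 3.27 ± 0.325 FPKM. Whether the plasmid, the transfection or the line itself accounts for the levels of the interferon-stimulated genes was not tested.

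The libraries differed slightly in this group. Of the 36 expressed members 35 were lowest in library 3, whereas 37.5% of all expressed genes were lowest there. The median member stood at 106%, 101% and 92.6% of its own mean in libraries 1, 2 and 3. The blood transcripts were higher in libraries 2 and 3 than in library 1, and their part in these differences was not tested.

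**Figure D3:**
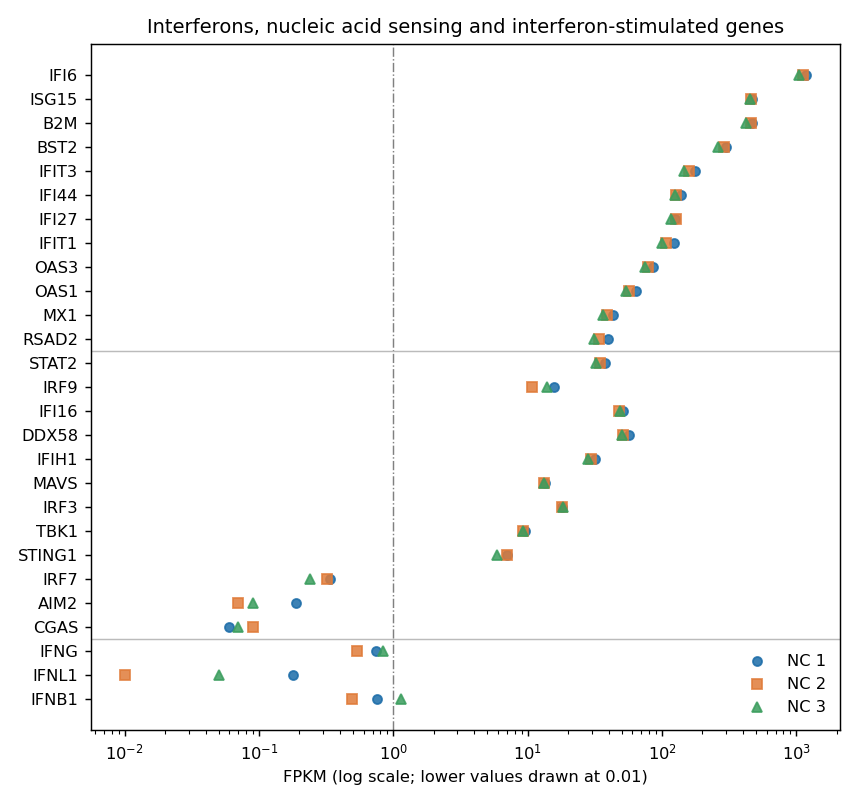
FPKM in each library (symbols) on a logarithmic axis for interferon genes (bottom block), sensors and signalling genes (middle) and interferon-stimulated genes (top); values under 0.01 are drawn at 0.01 and the dashed line marks 1 FPKM. The interferon-stimulated genes lie between 31.3 (RSAD2 in library 3) and 1188 FPKM (IFI6 in library 1), while CGAS lies under 0.1.

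Among the identity lists the mesenchymal list stood highest. The lists were chosen with earlier results of these data known, and their order depends on which genes were listed. Of its 32 genes 31 were expressed, 28 at or above 10 FPKM, with a median of 34.9 FPKM (35.3 in library 1). The calcium-binding protein S100A6 had 606, 672 and 684 FPKM, S100A11 346, 378 and 372 and the galectin LGALS1 287, 313 and 303. The hyaluronan receptor CD44 had 86.5 ± 3.27 FPKM and the AP-1 factor FOSL1 42.6 ± 1.06. CHI3L1, which encodes YKL-40 and is a widely used mesenchymal marker, was the exception, with 0.09, 0.09 and 0.15 FPKM (25, 26 and 43 counts).

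The classical list had 10 of 14 members expressed and a median of 2.43 FPKM. Its highest were the intermediate filament NES (31.4, 28.4 and 29.3 FPKM), the receptor EGFR (18.4, 17.4 and 18.2), the cadherin CDH4 (14.4, 14.1 and 13.3) and the Notch ligand JAG1 (9.97, 9.23 and 9.99). AKT2 (7.32 ± 0.14 FPKM), GLI3 (5.09 ± 0.157), LFNG (2.68 ± 0.303), SMO (2.19 ± 0.172), FGFR3 (1.62 ± 0.0757) and GAS1 (1.09 ± 0.216) were expressed at lower levels. PTCH1 had 0.647 ± 0.0493 FPKM, and NOTCH3, MEOX2 and GLI2 did not exceed 0.1 FPKM in any library. The proneural list had 7 of 17 members expressed and a median of 0.243 FPKM. Its highest were the tubulin-binding protein STMN1 (65.3, 62 and 66.1 FPKM), the stem cell factor SOX2 (45.9, 43.9 and 41.6), the adhesion molecule NCAM1 (5.82, 4.94 and 4.88) and the receptor PDGFRA (4.47, 3.51 and 3.77). The lineage factors of the proneural state were low: OLIG2 had 6, 21 and 14 counts and SOX10 had 0.02, 0.05 and 0 FPKM.

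Glial markers fell into expressed stem cell genes and low astrocyte genes. Of 34 glial and neural stem genes in the files, 22 were expressed, not far from the share of all protein-coding genes (10869 of 18372). Their median was 6.36 FPKM. Vimentin (VIM), an intermediate filament, had 506, 483 and 493 FPKM, and the HLH inhibitors ID1 and ID3 had 144, 139 and 140.3 and 136, 132 and 131. SOX9 had 20.2 ± 0.86 FPKM and POU3F2, a neural factor, had 13.5 ± 0.472. GFAP, the filament that defines astrocytes, had 3.53, 2.82 and 3.19 FPKM (rank 8971), and its values did not overlap with those of VIM. GFAP has a long annotated exon length of 11267 bases, and with 1 principal transcript it came to 5.48 FPKM. S100B, another astrocyte marker, had 0.07, 0.13 and 0.16 FPKM, and the stem cell marker PROM1 (CD133) had 16, 0 and 0 counts.

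Genes of other brain and tissue cells were mostly under 1 FPKM, with neuron markers expressed most often. Of 15 neuron markers 7 were expressed: UCHL1, a deubiquitinase, with 344, 335 and 335 FPKM (rank 58), the neurofilament NEFL with 95.8, 87.4 and 90.3, TUBB3 with 27.4, 26.1 and 26.6, ENO2 with 22.7, 25.1 and 22.2, MAP2 with 6.2 ± 0.575, SYT1 with 4.6 ± 0.0896 and GAD1 with 1.65 ± 0.114. The neurofilament partners NEFM and NEFH, with 0.18 ± 0.0557 and 0.02, 0.06 and 0.05 FPKM, were far below NEFL. SNAP25 had 0.65 ± 0.187 FPKM, SLC17A7 0.16 ± 0.0693 and SYP 0.13 ± 0.06. RBFOX3, the antigen NeuN, and STMN2 and GAD2 were at or near 0, with 0.02, 0 and 0, 0, 0 and 0 and 0, 0 and 0 FPKM. Of 9 oligodendrocyte markers only the phosphodiesterase CNP was expressed (26.6, 25.9 and 24.4 FPKM), and MYRF had 0.7 ± 0.0794. The myelin genes MBP, CLDN11 and MOBP and the factor SOX10 stayed at or under 0.07 FPKM in every library, and MAG and OPALIN were listed at 0.

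Of 10 endothelial markers only KDR, a VEGF receptor, was expressed (2.96, 2.64 and 2.84 FPKM). ESAM had 0.453 ± 0.101 FPKM, and VWF, PECAM1, CDH5, CLDN5, FLT1, ERG, TIE1 and TEK stayed at or under 0.16. Of 16 microglia and leukocyte markers only the lysosomal protein CD68 was expressed (10.6, 8.19 and 7.29 FPKM). Next came CD14 (0.59, 0.71 and 0.52), CD3D (0.52, 0.42 and 0.49) and PTPRC, the leukocyte antigen CD45 (0.21, 0.75 and 0.46). PTPRC (156, 541 and 352 counts), CX3CR1 (4, 45 and 20), TYROBP (0, 21 and 6) and AIF1 (0, 17 and 11) were lowest in library 1. The blood transcripts were also lowest there, whereas CD68 and CSF1R were highest in library 1. A link to the blood transcripts was not tested. Keratin 18 (KRT18) had 12, 13 and 12.5 FPKM, and KRT7 and KRT8 had 2.33 ± 0.72 and 1.02 ± 0.19, while the epithelial adhesion genes EPCAM and CDH1 stayed at or under 0.1. KRT19 (0.833 ± 0.344 FPKM), CLDN4 (0.737 ± 0.176), ESRP1 (0.207 ± 0.0416), KRT5 (0.11 ± 0.0458), KRT14 (0.1 ± 0.0781) and GRHL2 (0.04, 0.02 and 0) were under 1 FPKM. Apart from the globins, no gene of the list for other organs was expressed, and the highest was ALB with 0.28, 0.28 and 0.12 FPKM.

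**Figure D4:**
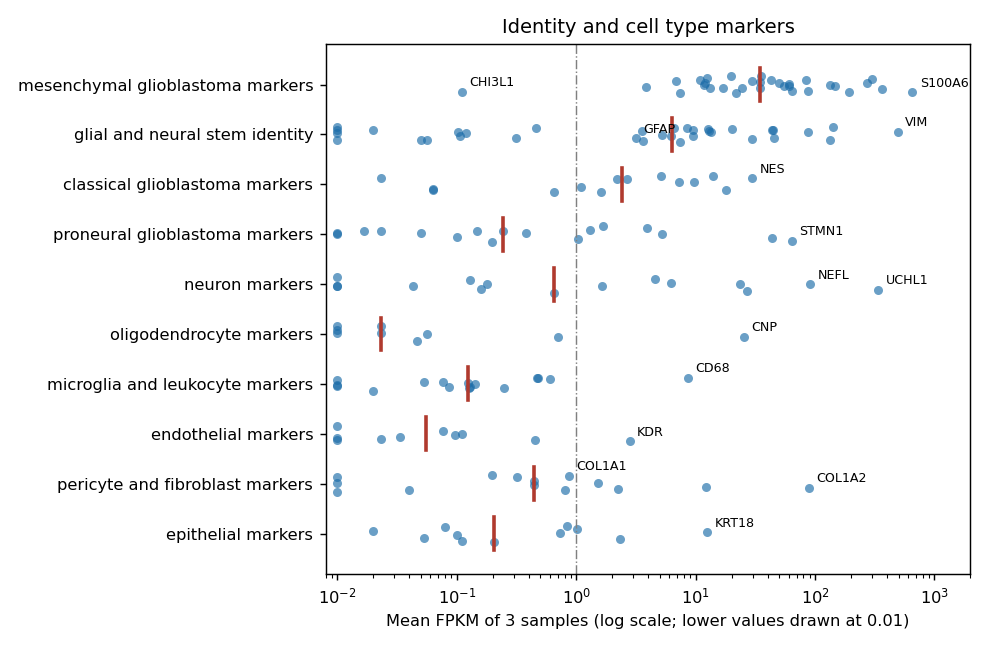
Mean FPKM over the 3 libraries on a logarithmic axis for the genes (points) of 10 identity and cell type lists, with the list median as a red bar; values under 0.01 are drawn at 0.01 and the dashed line marks 1 FPKM. The median is 34.9 for mesenchymal genes, 0.243 for proneural genes and 0.0233 for oligodendrocyte genes.

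The fibroblast list showed a split between the chains of type I collagen. COL1A2, the alpha 2 chain, had 95.8, 88.4 and 85.2 FPKM, and COL1A1, the alpha 1 chain of the same trimer, had 0.9, 0.79 and 0.93. COL1A2 was 103 ± 10.6 times COL1A1, and 152 times with the length of 1 principal transcript. COL3A1, which is often made by the same cells, had 5, 12 and 0 counts. THY1 had 12.3 ± 0.411 FPKM, ACTA2 2.24 ± 0.371 and TAGLN 1.53 ± 0.127, and PDGFRB (0.44 ± 0.0794), FAP (0.32 ± 0.104), CSPG4 (0.197 ± 0.0379) and LUM (0.05, 0.05 and 0.02) were under 1 FPKM. The 2 gene models named RGS5 had means of 0.807 and 0.447 FPKM, and DCN and POSTN were listed at 0.

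Matrix genes and their integrin receptors were expressed in part. Of 54 matrix genes 32 were expressed, a share close to that of all protein-coding genes (10869 of 18372). Their median was 4.44 FPKM. The collagen-binding glycoprotein SPARC had 229.7, 219 and 213 FPKM and osteopontin (SPP1) 166, 159.7 and 159, followed by COL1A2 and TGFBI (83.3 ± 2.46). The laminin chains LAMC1 and LAMB1 had 41.3 ± 1.95 and 29.8 ± 1.15 FPKM, and fibronectin (FN1) 11.9 ± 0.633. The proteoglycan VCAN had 14.6 ± 0.752 FPKM, whereas the brain proteoglycans BCAN and NCAN had 0.243 ± 0.0115 and 0.01, 0.01 and 0. Of 26 integrins 14 were expressed, which is also not far from the share of all protein-coding genes. The alpha 3 chain ITGA3 (95.2, 91.9 and 86.3 FPKM) and the beta 1 chain ITGB1 (84.4, 80.8 and 82.2), which pair as a laminin receptor, were highest and did not overlap with each other. They were followed by the fibronectin receptor chain ITGA5 (29.1 ± 1.41), ITGAV (28.6 ± 0.375), ITGB4 (22.4 ± 1.18), ITGA6 (12.6 ± 0.814) and ITGA2 (12.1 ± 0.594). ITGB8 (9 ± 0.34), ITGB5 (8.25 ± 0.395), ITGA7 (4.3 ± 0.112), ITGB3 (3.52 ± 0.229), ITGAE (2.9 ± 0.0361), ITGA4 (2.62 ± 0.0802) and ITGA1 (1.05 ± 0.0569) were lower. The leukocyte chains ITGAL, ITGAM and ITGAX were under 1 FPKM, with 0.17 ± 0.0458, 0.0533 ± 0.0306 and 0.133 ± 0.0839. ITGB2, their beta partner, had 101, 263 and 210 counts and ITGA2B, the platelet chain, 10, 62 and 35, both higher in libraries 2 and 3. ITGA8 had 0 counts in every library, which allows up to 0.00512 FPKM.

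Receptor tyrosine kinases were led by receptors other than EGFR. Of 57 receptors in the files 23 were expressed, beside 10869 of 18372 for all protein-coding genes. AXL, the receptor for GAS6, had 115, 110.3 and 117 FPKM, the ephrin receptor EPHA2 87.4, 85.3 and 88.7, the HGF receptor MET 64.6, 63.2 and 64.3 and EPHA3 20.1, 19.7 and 18.2. The first 3 did not overlap with each other. EGFR had 18.4, 17.4 and 18.2 FPKM, overlapped with EPHA3 and did not overlap with MET above or with IGF1R (11.1, 10.7 and 10.3) below. FGFR1 had 5.78 ± 0.246 FPKM, ERBB2 4.8 ± 0.348 and PDGFRA 3.92 ± 0.496, while ERBB3 and ERBB4 had 0.1 ± 0.0265 and 0.127 ± 0.0289. EPHA10 had 0, 0 and 0 counts.

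Growth factor genes were expressed in part. Of 48 growth factors 30 were expressed, a share near that of all protein-coding genes (10869 of 18372). Their median was 2.33 FPKM. The YAP targets CCN2 and CCN1 had 65, 60.8 and 70.3 and 45.4, 44.7 and 48.9 FPKM, the stress cytokine GDF15 43.5, 50.5 and 44 and pleiotrophin (PTN) 37.4, 36.4 and 35.7. VEGFA, the main angiogenic factor of glioblastoma, had 11.3 ± 0.589 FPKM. The MET ligand HGF had 0, 0 and 0 counts, and GDNF and NTF3 had 0, 0 and 0 and 0, 0 and 0. Downstream, all 32 genes of the PI3K and RAS list were expressed, among them NRAS (60.1, 58.6 and 61.1 FPKM) and the MEK genes MAP2K1 (41.4, 41.4 and 40.8) and MAP2K2 (27.9, 27.4 and 27.2). NRAS stood above HRAS (13.2 ± 0.264) without overlap. The tumour suppressor NF1, a RAS inhibitor, was expressed at 3.14, 3.15 and 2.99 FPKM. A transcript level says nothing of mutations in a gene, and variants were not examined.

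Of 17 surface antigens that have been targeted in glioblastoma, 12 were expressed. The decoy receptor IL13RA2 had 165, 164 and 164 FPKM (rank 134) and overlapped with CD70, the ligand of CD27, which had 161, 171 and 158 (rank 135). AXL and EPHA2 followed, and the B7 family protein CD276 had 23 ± 0.948. On the list of immune checkpoints and surface ligands, 18 of 27 genes were expressed, not far from the share of all protein-coding genes (10869 of 18372). CD70 was highest, followed by the ectonucleotidase NT5E (CD73) with 48.9, 46.5 and 47.8, the poliovirus receptor PVR with 40.3, 38 and 38 and the NKG2D ligand MICA with 33.7, 32.1 and 32.8. PD-L1 (CD274) had 15.8 ± 0.374 FPKM and PD-L2 (PDCD1LG2) 5.46 ± 0.306. The costimulatory genes CD80 and CD86 had 0, 14 and 0 and 0, 9 and 0 counts, and ULBP1 and HHLA2 had 0 in every library.

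Cytokines were led by chemokines. Of 39 genes 22 were expressed, a share near that of all protein-coding genes (10869 of 18372). Their median was 1.24 FPKM. CXCL8, which draws neutrophils, had 164, 219 and 160.5 FPKM and CCL2, which draws monocytes, 52, 59.8 and 41.6, followed by CSF1 (28, 26.7 and 25.3) and the caspase-1 substrate IL18 (21, 22.2 and 21.5). CXCL10, an interferon-stimulated chemokine, had 16.3, 18 and 10.9 FPKM, IL6 5.78, 6.38 and 5.13 and TNF 1.13, 1.63 and 1.16. Of the 22 expressed genes 17 were highest in library 2, whereas 26.7% of all expressed genes were highest there. The median member stood at 97.9%, 111% and 91.0% of its own mean in libraries 1, 2 and 3. Libraries 2 and 3 both held the blood transcripts, and their part in these values was not tested. CXCL12 and CXCL6 had 0 counts in every library.

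Around the CDKN2A locus on chromosome 9 the tumour suppressors were near the floor between expressed neighbours. CDKN2A (chr9:21967753-21994873 on GRCh38), which encodes the cell cycle inhibitors p16INK4a and p14ARF, had 0, 8 and 9 counts. CDKN2B (chr9:22002903-22009305), which encodes a related inhibitor, had 0, 0 and 4, and the antisense RNA CDKN2B-AS1 had 0, 0 and 0, which allows up to 0.00481 FPKM. On one side MTAP (chr9:21802636-21937651), an enzyme of methionine salvage, had 7.51, 7.15 and 7.36 FPKM from 8629, 8083 and 8866 counts. On the other side the next gene of the list, DMRTA1 (chr9:22446824-22455740), had 3.17, 3.44 and 2.88 FPKM. The values of both neighbours did not overlap with those of CDKN2A or CDKN2B.

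Of 21 genes of 9p21 in the files 10 were expressed, beside 10869 of 18372 for all protein-coding genes. PLAA (18.4, 16.2 and 17.6 FPKM), the ubiquitin ligase adaptor KLHL9 (15.9, 14.4 and 14.6) and CAAP1 (11.4, 11.5 and 11.1) were highest. FOCAD (4.94 ± 0.401), IFT74 (4.48 ± 0.35), MLLT3 (2.09 ± 0.222), the long noncoding RNA MIR31HG (1.89 ± 0.312) and ELAVL2 (1.42 ± 0.172) were lower. The interferon genes of the list averaged under 1 FPKM: IFNB1 had 0.797 ± 0.327 FPKM and IFNE 0.667 ± 0.156, whereas IFNA1 and IFNW1 had 4, 3 and 0 and 0, 0 and 4 counts. Loss of CDKN2A is known from many glioblastoma lines, U251 among them, but these data hold no DNA, and a lost gene and a silent gene cannot be told apart here.

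General regulators of the cell cycle and of p53 were mostly expressed. Of 30 regulators 23 were expressed, led by cyclin B1 (CCNB1) with 97.3, 87.6 and 94 FPKM, the cyclin-dependent kinase inhibitor CDKN1A with 45.6, 46.1 and 44.3, the kinase CDK4 with 42.6, 41.5 and 40.4 and cyclin D1 (CCND1) with 39.2, 38 and 41.4. The retinoblastoma gene RB1 had 19.7 ± 0.411 FPKM and the ubiquitin ligase gene MDM2 8.16 ± 0.415. Cyclin D2 (CCND2) had 0.113 ± 0.0351 FPKM and did not overlap with CCND1. All 30 proliferation markers in the files were at or above 10 FPKM, with a median of 59.1. They were led by the tubulin gene TUBA1B (535, 525 and 529 FPKM), the histone variant H2AZ1 (149, 146 and 152), topoisomerase TOP2A (119, 109 and 117) and CKS2 (109.7, 106 and 122).

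Telomere and repair genes included both abundant and missing members. Of 31 genes 28 were expressed, with a median of 9.91 FPKM. The Ku subunits XRCC6 and XRCC5, which bind broken ends, had 145, 132 and 138 and 78.5, 73.7 and 75.1 FPKM, the endonuclease APEX1 60, 57.7 and 62 and IDH1 41.3, 38.8 and 38.2. ATRX and DAXX, whose loss goes with alternative lengthening of telomeres, had 5.12 ± 0.0985 and 25.6 ± 0.703 FPKM. MGMT, which removes alkyl groups from guanine and is known for its part in temozolomide resistance, had 0, 0 and 4 counts. TERT, the telomerase protein, had 52, 20 and 29 counts (0.1, 0.04 and 0.06 FPKM). The telomerase RNA TERC had 0, 0 and 0 counts, which allows up to 0.0713 FPKM. TERC has no poly(A) tail, and whether the libraries were selected for poly(A) RNA is not given in the sources used here.

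HOX genes, which give cells their position along the body axis and are silent in most of the forebrain, were expressed in part. Of 38 genes 22 were expressed, a share close to that of all protein-coding genes (10869 of 18372). By cluster these were 5 of 11 in A, 5 of 9 in B, 5 of 9 in C and 7 of 9 in D. HOXC10 was highest with 17.7, 17.4 and 17.1 FPKM and did not overlap with HOXD10 (12.5, 13 and 12.7). HOXD10 overlapped with HOXB7 (11.7, 13.2 and 12), and HOXB3 (12, 12 and 11.6) and HOXD11 (10.4, 10.3 and 9.74) came next. In cluster B HOXB9 (9.22 ± 0.251), HOXB13 (2.29 ± 0.4) and HOXB6 (2.05 ± 0.114) were also expressed. In cluster C HOXC13 (6.17 ± 0.355), HOXC6 (4.34 ± 0.0781), HOXC4 (3.21 ± 0.142) and HOXC9 (2.04 ± 0.409) were expressed.

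In cluster D HOXD4 (4.79 ± 0.35), HOXD9 (4.18 ± 0.228), HOXD8 (3.37 ± 0.342), HOXD3 (1.55 ± 0.305) and HOXD13 (1.41 ± 0.358) passed 1 FPKM. In cluster A HOXA7 (5.14 ± 0.352), HOXA5 (2.3 ± 0.666), HOXA11 (1.97 ± 0.231) and HOXA6 (1.09 ± 0.108) were among those that passed it. The summed level was 14.3 ± 0.657 FPKM in cluster A, without overlap below B (39.2 ± 1.15), C (34.7 ± 0.361) and D (38.5 ± 0.667). Neighbours in a cluster could differ strongly: HOXC10 lay beside HOXC11 with 0, 4 and 0 counts, and HOXA9 and HOXA10 had 7, 6 and 7 and 7, 0 and 0 counts between expressed HOXA7 and HOXA11. The forebrain factor EMX2 had 0, 0 and 14 counts in the same libraries.

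**Figure D5:**
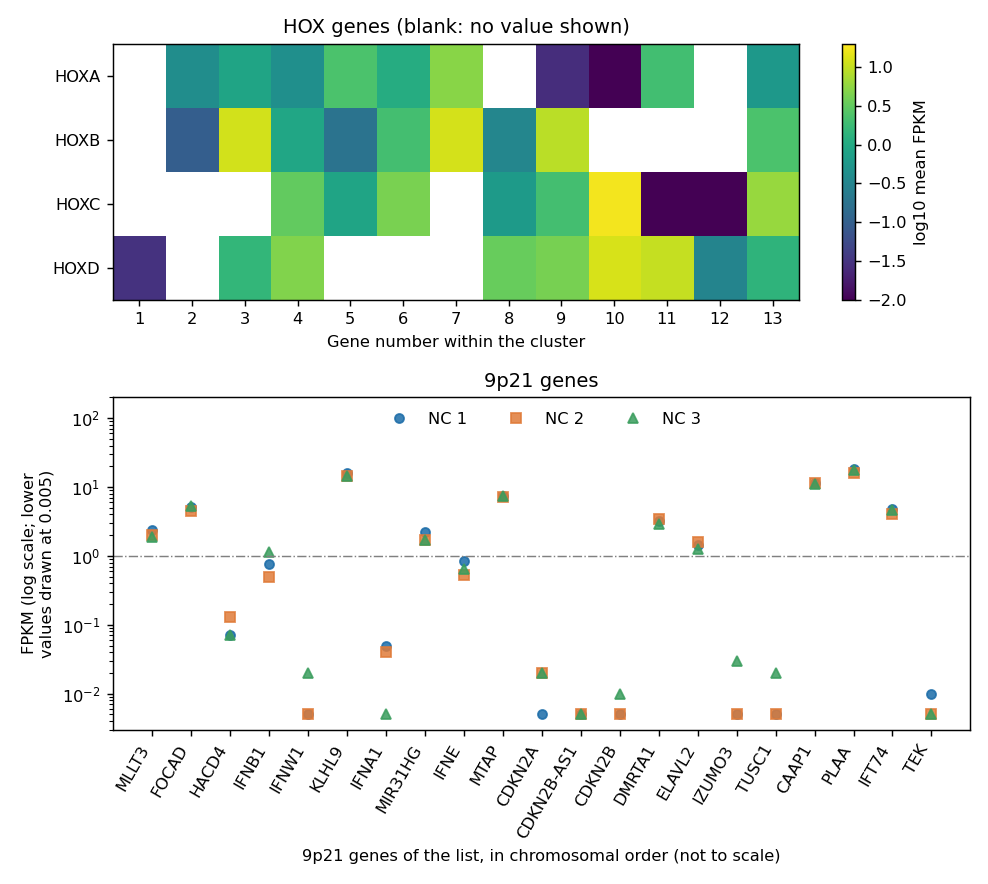
Top, log10 of the mean FPKM (colour) of HOX genes by cluster (rows) and number (columns), with values under 0.01 FPKM drawn at 0.01. Bottom, FPKM on a logarithmic axis in each library (symbols) for 9p21 genes in chromosomal order. There, values under 0.005 are drawn at 0.005 and the dashed line marks 1 FPKM. HOXC10 is the brightest cell at 17.4 ± 0.296 FPKM, and CDKN2A, CDKN2B-AS1 and CDKN2B lie under 0.03 FPKM between MTAP (7.34 ± 0.181) and DMRTA1 (3.16 ± 0.28).

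Transcription factors of the mesenchymal, AP-1 and lineage list were led by HIF1A, the hypoxia factor (86.9, 81.7 and 83.1 FPKM), the stress factor ATF4 (82.4, 79.3 and 80.3), and the AP-1 factors JUN (42.9, 43.4 and 43.8) and FOSL1 (41.4, 43.1 and 43.3). Of 53 genes in the files 37 were expressed, beside 10869 of 18372 for all protein-coding genes. FOSL1 was far above its relative FOS (0.707 ± 0.0764 FPKM) without overlap. Of the factors of epithelial to mesenchymal change, TWIST1 (5.12 ± 0.428), ZEB1 (4.88 ± 0.22) and SNAI2 (4.29 ± 0.138) were expressed, whereas SNAI1 had 0.127 ± 0.0289. TBX5 was listed at 0.

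Glycolytic genes were among the most abundant of metabolism. Of 31 genes 21 were expressed, beside 10869 of 18372 for all protein-coding genes, and 8 were at or above 100 FPKM. GAPDH was highest, followed by enolase ENO1 (667, 653 and 632 FPKM), pyruvate kinase PKM (463, 459.6 and 435) and TPI1 (311, 325 and 308). Of the lactate dehydrogenase subunits, LDHB had 107, 103 and 104 FPKM and LDHA 6.35, 6.54 and 6.66. LDHB was 16.1 ± 0.713 times LDHA, and 12.45 times with 1 principal transcript. LDHA has several near-identical processed pseudogenes, and fragments lost to them were not measured, so its level is uncertain. Liver and muscle isozymes were low: PKLR, SLC2A2, PGAM2 and PGK2 had under 3 counts in every library.

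Lipid synthesis and lysosomal genes were broadly expressed. All 26 genes of cholesterol and fatty acid synthesis were expressed, with a median of 28.6 FPKM, among them the desaturase SCD (249.5, 252 and 217 FPKM), the elongase ELOVL5 (133, 123 and 125) and ACLY, which makes cytosolic acetyl-CoA (86.8, 83.3 and 82.8). Of 31 lysosomal and protease genes 29 were expressed. PSAP was highest, and cathepsin D (CTSD, 213, 209.5 and 193 FPKM) and the tetraspanin CD63 (193, 192 and 197) were also among the highest.

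Among chaperone, iron and redox genes 39 of 42 were expressed and 21 were at or above 100 FPKM. After FTL and FTH1 came the chaperone HSP90AB1 (610.4, 548 and 594 FPKM) and calreticulin (CALR, 560.5, 556 and 532). The metallothionein MT2A had 338 ± 19 FPKM and the transferrin receptor TFRC 182 ± 7.67, while the iron exporter SLC40A1 had 0.0933 ± 0.0321. The inducible HSP70 genes HSPA1A and HSPA1B, near-identical copies, had a summed level of 122 ± 8.80 FPKM. MT1G had 0 counts in every library.

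Of the cancer-testis antigens, genes normally silent outside the germ line, 6 of 19 in the files were expressed. MAGEA6 had 42.9, 40.2 and 42.3 FPKM and its near-identical copy MAGEA3 36.8, 34.6 and 36.4, with a sum of 77.7 ± 2.56. MAGED2 (20.5, 20.2 and 19.1) and MAGED1 (8.62, 8.29 and 7.84), which are widely expressed members of the family, followed, and 4 genes of the list had under 3 counts in every library. Among long noncoding RNAs 28 of 41 genes were expressed. MALAT1, a nuclear RNA, had 102, 103 and 120.1 FPKM and NORAD 77.8, 78.5 and 78, followed by the signal recognition particle RNAs RN7SL2 (51.8, 71.2 and 81.2) and RN7SL1 (48.8, 66.6 and 73.8), which were lowest in library 1. HOTAIR and H19 had 0, 7 and 7 and 9, 4 and 7 counts. Of 16 histone genes 13 were expressed, among them H2AZ1, H3-3B (104, 103 and 105) and H2AX (63, 59.2 and 59.1).

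All 18 reference genes that are often used for normalization were expressed, but over a wide range. GAPDH, EEF1A1, TUBB and ACTB were highest, and TBP was among the lowest, with 11.2, 9.27 and 9.89 FPKM. B2M, which is also a reference gene in common use, belongs to the interferon-stimulated group and had 470.2, 463 and 424.

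Most genes varied little between the libraries. Among the 4459 genes at or above 10 FPKM the median coefficient of variation was 3.41%, against 1.14% from counting alone, and 24 genes exceeded 25%. The 5 genes of smallest variation were METTL2B (11.34, 11.35 and 11.37 FPKM), DHX15 (24.5, 24.5 and 24.6), GNB2 (67.4, 67.2 and 67.3), RHOA (219, 218 and 218) and SIKE1 (17.7, 17.7 and 17.7). With 3 values per gene such small spreads describe these libraries only.

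The 10 genes of largest variation were of 2 kinds. The globins HBB, HBA1 and HBA2 varied by 86.7%, 86.6% and 86.6%, as described above. The others overlapped another gene model. BEST1, a chloride channel gene, had 0.3, 29.7 and 0.91 FPKM, and it overlaps FTH1. Counts of both models summed to 357803, 358310 and 360717. The sum as CPM varied by 2.99%, against 163% for the FPKM of BEST1. TOMM6, a subunit of the mitochondrial import pore, had 100.4, 108.5 and 2.45 FPKM. Its sum with AL365205 as CPM varied by 4.07%, against 83.8% for its FPKM.

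The same held for 4 further pairs, with the variation of each sum again taken as CPM. MRPL53 (22.5, 4.96 and 11.4 FPKM) summed with CCDC142 to a variation of 4.61%, AC023509 (21.1, 24.6 and 5.03) with PCBP2 to 2.58%, RPL36A-HNRNPH2 (39.4, 32.5 and 8.32) with RPL36A to 6.31% and RNASEK-C17orf49 (18.4, 7.39 and 25.5) with RNASEK to 5.69%. AC004057 (8.38, 39.3 and 6.88 FPKM) was different, since its sum with ANK2 as CPM still varied by 26.7%. How counts were divided between overlapping models is not given in the sources used here.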

How the data were processed

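RNA from 3 samples of control-plasmid U251 cells was used. Trizol RNA (1 ug) went into Illumina TruSeq RNA libraries, per the labels' protocols. The submitters' processing notes name Bowtie 0.12.2, without its role. For the counting program, genome build, annotation, strand and treatment of multiple matches, the sources used here give nothing. Per the file headers, the authors deposited a whole-number count and an FPKM value for each gene.

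The deposited counts summed to 74638335, 71498790 and 76158548, and they set the depth. Floors (3 counts) cover counting error only. The deposited FPKM values were proportional to counts, with 1 length per gene. For 68.8% to 68.9% of 9311 genes that length was the union of all annotated exons in GENCODE v29 within 1%, so genes with long rare exons are understated. GENCODE v29 held 40903 of the identifiers, 89.8% with a matching start or end (tolerance 1 base), and coordinates were therefore read as GRCh38. Counts of 4 were over-represented, by 2.05 to 2.29 times against the average for 3 and 5, which makes floors of 3 counts optimistic.

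No groups were compared and no test was made. Levels are FPKM means ± SD (n = 3), and genes are called different only where the 3 values of each do not overlap. Summaries were made with Python 3.11.15, pandas 2.3.3 and numpy 2.4.6 and tested on simulated data. The members and gene lists were chosen with earlier results of these data known. Named are the 30 highest genes, the 4 highest of each list, all members of lists of up to 15 genes, all expressed 9p21, HOX and integrin genes, chosen glioblastoma and STING pathway genes, the 10 highest noncoding RNAs, and the 10 most and 5 least variable genes at or above 10 FPKM. Blood cell lists and any other named genes were picked with their values in view. Some genes that the rule names are not reported here. Alternatives changed the threshold, filter, length, scaling and samples.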

Additional observations from a re-analysis of the deposited data

How the results depend on the processing

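The number of expressed genes stayed within 1.5 times 12533 under every alternative tried: 14710 at 0.5 FPKM, 10461 at 2 FPKM, 12043 with 1 FPKM in every library, 12444 with at least 10 counts in every library, 17337 at 1 TPM, 13402 with 1 principal transcript and 12539 to 12544 without each library. TPM scales FPKM to a larger common sum than the 256507, 253664 and 251983 of libraries 1, 2 and 3. A cut-off of 1 TPM is therefore lower than 1 FPKM, and the TPM count is a change of threshold. The 480 genes that hold 50% of FPKM became 1217 as CPM and 951 without mitochondrial genes, and were 476 to 483 without each library. The share of the 10 highest genes moved to 5.45% as CPM, 7.11% without mitochondrial genes and 11.4% with 1 principal transcript, and lay between 16.7% and 17.0% without each library. The share of mitochondrial mRNAs moved to 3.87% as CPM and 10.7% with 1 principal transcript, and lay between 16.2% and 16.5% without each library. The share of ribosomal proteins moved to 2.75% as CPM, 4.65% without mitochondrial genes, 6.38% with 1 principal transcript and 3.58% in library 1 alone, and lay between 3.67% and 3.81% without each library. The median variation of genes at or above 10 FPKM was 2.45% to 3.04% without each library, where each value rests on 2 samples. Of the median ranks of 39 lists, all stayed within 1.5 times when a library was left out or library 1 was used alone, 36 with 1 principal transcript, 30 as CPM and 32 when only genes with at least 10 counts in every library were ranked. The principal transcript and library 1 alternatives were chosen after seeing the data. No paired analysis was possible because the results come from no test between groups. Depth limits genes near 3 counts per library, and a gene at 0 there is not shown to be absent.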
